A study of Mus musculus with 6 samples.

Results

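The genes described here encode enzymes and a chaperone that modify collagen and elastin: the 5 lysyl oxidases (Lox, Loxl1, Loxl2, Loxl3 and Loxl4), the 3 lysyl hydroxylases (Plod1, Plod2 and Plod3), the collagen chaperone Serpinh1 (HSP47) and the procollagen C-proteinase Bmp1. They were chosen by symbol, with earlier results of these data known, and all 10 were found among the 21785 gene rows of the deposited table. All 10 passed the filter on low values, which asked for a mean of 1 or more. Total RNA was sequenced from pulmonary arterial smooth muscle cells, the cells that contract the walls of lung arteries, grown out from lung vessels of C57BL/6 mice that had been filled with iron-loaded agarose. All cultures spent 48 h in medium without supplements. The BMP9/10 group (3 samples) was then stimulated for 6 h with 1 ng/mL of bone morphogenetic protein 9 (BMP9) and 5 ng/mL of BMP10, blood-borne ligands related to TGF-beta, and the control group (3 samples) was not. The labels give neither the age of the mice nor whether the samples came from separate animals or cultures, so the p-values reflect only how far these 6 samples spread, which may be technical.

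Collagen is modified in steps. In the endoplasmic reticulum, lysyl hydroxylases add hydroxyl groups to lysines, and Serpinh1 binds the folded triple helix until the procollagen is exported. Outside the cell, Bmp1, which despite its name is a zinc protease and not a BMP ligand, cuts off the C-terminal propeptide, and it also cuts the Lox proenzyme. Lysyl oxidases are copper enzymes that oxidise lysines and hydroxylysines, and the products join collagen and elastin molecules into cross-linked fibres. In the artery wall these cross-links set much of the stiffness and strength of the matrix.

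The families consist of related genes, and a short stretch of each active site shows how alike the transcripts are where the proteins are most conserved. The Lox sequence is not shown here. The coding sequences below, from GENCODE M21 transcripts (GRCm38, which is mm10), span the copper-binding stretch of the other 4 lysyl oxidases, 5′ to 3′, with the 4 histidine codons in capitals. Each stretch crosses an exon junction, so its coordinates include an intron.
Loxl1: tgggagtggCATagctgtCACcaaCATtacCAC
Loxl2: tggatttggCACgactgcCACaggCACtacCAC
Loxl3: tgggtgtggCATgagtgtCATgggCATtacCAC
Loxl4: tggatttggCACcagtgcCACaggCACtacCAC

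These stretches lie at chr9:58293720-58294381 (minus strand, exons 3 and 4 of 7), chr14:69682316-69689037 (plus strand, exons 10 and 11 of 14), chr6:83049995-83050125 (plus strand, exons 10 and 11 of 14) and chr19:42598807-42599899 (minus strand, exons 11 and 12 of 15), in the order shown. Of the 33 bases, 20 are the same in all 4 genes, and Loxl2 and Loxl4 share 31. For the lysyl hydroxylases, the stretch that begins at the iron-binding histidine and aspartate is shown, with those codons in capitals.
Plod1: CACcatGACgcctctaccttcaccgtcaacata
Plod2: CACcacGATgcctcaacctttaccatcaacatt
Plod3: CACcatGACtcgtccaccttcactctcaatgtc

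They lie at chr4:147913250-147913282 (minus strand, exon 18 of 19), chr9:92606827-92606859 (plus strand, exon 19 of 20) and chr5:136994996-136995028 (plus strand, exon 18 of 19), and 22 of their 33 bases are shared by all 3. Over whole coding transcripts, the longest run of identical bases was 32 between Lox and Loxl1, between 11 and 28 for the other pairs of lysyl oxidases, and 15, 24 and 20 for Plod1 with Plod2, Plod1 with Plod3 and Plod2 with Plod3. The read length is not given in the sources used here.

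The deposited values are normalized read counts, and they summed to between 27295973 and 31903795 per library. Replicate 2 of both groups stood apart. All 10 endothelial markers were highest there, with sums of 39110 in control replicate 2 against 9645 and 11979 in the other controls, and of 38535 in stimulated replicate 2 against 7535 and 13659. The 10 smooth muscle markers were all present, at sums of 43182 to 64817 in controls and 93309 to 195654 after stimulation. Most of each sum came from Acta2, at 23470 to 37627 in controls and 69094 to 153164 after stimulation. Acta2, Tagln, Cnn1 and Lmod1 were called higher, which is 4 of 10, beside 8.61% of all genes tested. These calls were kept in 5, 5, 4 and 3 of the 7 fits that left out libraries. The other 6 were not called, and Des (-0.43) and Synpo2 (-0.12) had negative changes. Markers of other cell types were present too. The 8 macrophage markers summed to between 91779 and 157523 in controls and between 137919 and 204448 after stimulation, mostly from Lyz2. This sum was above the smooth muscle sum in every library except stimulated replicate 2 (137919 against 195654). Per kilobase of exon, Lyz2 was at rank 2 of 21705 genes in both groups. Acta2 was at rank 39 in controls and 11 after stimulation. The 8 epithelial and 5 mesothelial markers also had their highest sums in replicate 2 of both groups. The epithelial sums there were 35276 and 36304, against 7984 and 9057 in the other controls and 3248 and 17701 in the other stimulated libraries. The mesothelial sums were 4030 and 2507, against 1159 and 1074 and against 319 and 1157. The 8 fibroblast markers summed to 20820 to 26498 and 10873 to 19791, with falls of Pdgfra and Scara5 (the latter called in 1 of 7 fits that left out libraries). When replicates were blocked, 26.8% of all genes tested were called. In that fit 5 smooth muscle markers rose, and 1 fibroblast marker rose and 3 fell. Among the endothelial markers, 1 (Kdr) rose and 3 (Tek, Cldn5 and Egfl7) fell. Of the macrophage markers 1 rose in that fit, of the epithelial markers 1 rose and 1 fell, and of the mesothelial markers 1 fell. No marker was at 0 in any library. In such mixed cultures, a change in the share of cells of a type and a change in the RNA per cell cannot be told apart, and the part these cells have in the results below was not tested.

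Stimulation with BMP9 and BMP10 was followed by higher levels of all 5 lysyl oxidase genes and of Plod2 and Plod3, and by a lower level of Plod1. Of the 10 genes, 7 rose, 1 fell and 2 (Serpinh1 and Bmp1) did not pass limma with Benjamini-Hochberg adjustment over all 21743 genes tested. Over all genes tested, 13.4% were called, 8.61% higher and 4.75% lower, and of the 9799 genes whose mean reached 300, as all 10 members have, 22.8% were called and 16.7% were called higher. With the replicate number as a block, the same 8 of the 10 genes were called, beside 26.8% of all genes. The median change of the 10 genes was 0.52 on the log2(value + 1) scale, beside -0.03 over all genes tested. Groups did not overlap for 9 of the 10 genes, and for 33.2% of all genes tested. The balance over all genes depended on the scaling: 1873 rose and 1032 fell with the values as deposited, 1418 and 1365 with upper-quartile factors, and 1135 and 2265 with equal library totals, which moved the median of all genes to -0.20. With equal totals, 5 of the 10 genes were called, 4 higher and 1 lower. When replicate 2 of both groups, with its high endothelial, epithelial and mesothelial marker sums, was left out, 5 of the 10 were called (Lox, Loxl1, Loxl3, Loxl4 and Plod2). The count was 4 when control replicate 1, control replicate 3 or stimulated replicate 3 alone was left out. Such fits have fewer residual degrees of freedom.

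**Figure D1:**
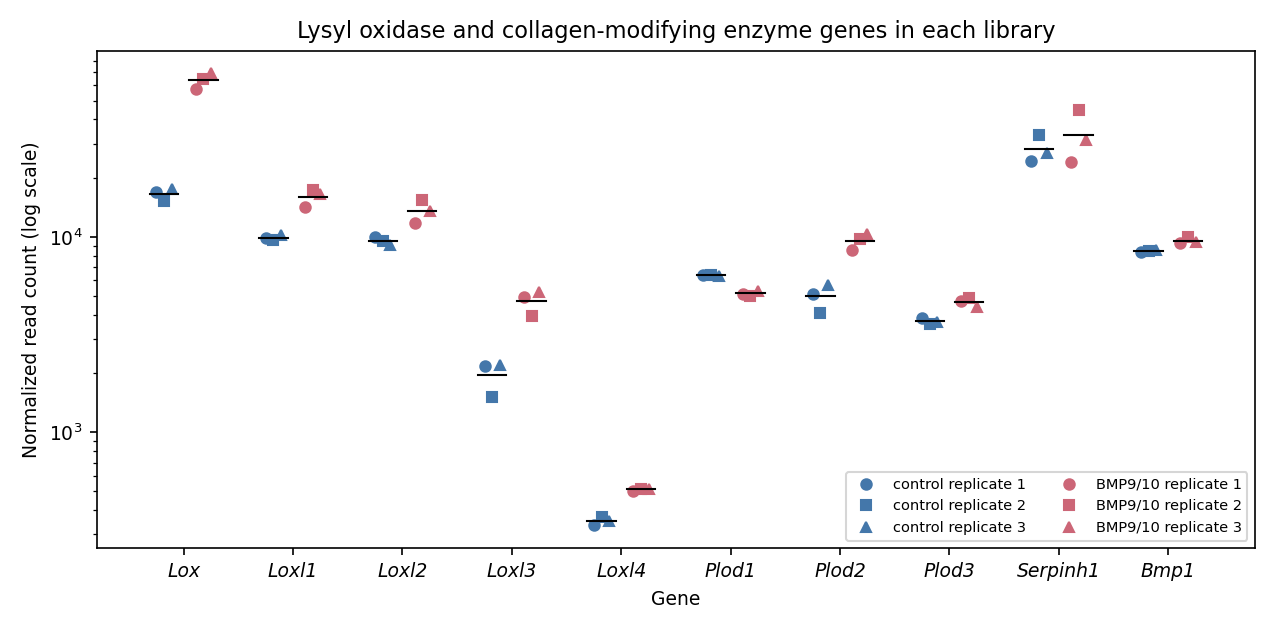
Normalized read count (log axis) of each of the 10 genes in each library; blue symbols are the 3 controls, red symbols the 3 libraries stimulated with BMP9 and BMP10, symbol shape gives the replicate number and black lines are group means. The groups are apart for every gene except Serpinh1, with the widest gap for Lox, at 15346 to 17527 in controls and 57426 to 68936 after stimulation.

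Lox, the founding member of the family and the main cross-linking enzyme of fibrillar collagen and elastin, showed the largest change among the 10 genes. It was at 17017, 15346 and 17527 in control replicates 1 to 3 and at 57426, 64221 and 68936 in stimulated replicates 1 to 3. All 3 stimulated libraries lay above all controls. The group means were 16630 ± 1140 and 63528 ± 5790 (SD, n = 3 each), a ratio of 3.82. The change was 1.93 ± 0.10 (SE) on the log2(value + 1) scale (limma adjusted p = 0.000246), and the differences between same-numbered libraries were 1.76, 2.07 and 1.98. By p, Lox ranked 18th of all genes tested. Its call was kept in each of the 18 alternative fits, with changes of 1.76 to 2.00. In level per kilobase (kb) of exon, Lox went from 3481 ± 239 to 13296 ± 1210, which moved it from rank 295 to rank 54 among 21705 genes.

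Loxl3, a family member with scavenger receptor domains ahead of its catalytic domain, had the second-largest change among the lysyl oxidases. Its control values were 2174, 1510 and 2203, and its stimulated values were 4921, 3948 and 5218. The groups did not overlap, although replicate 2 was the lowest of each group, at 0.69 and 0.779 of the mean of the other replicates. The change was 1.27 ± 0.18 (limma adjusted p = 0.00614) and was of like size in all 3 pairs of same-numbered libraries. The call was kept in all 18 alternatives. Htra2, which is read from the other strand, has exons over 11.6% of the exon length of Loxl3. If the counting ignored strand, reads there cannot be assigned to either gene. Htra2 was at 690 to 777 in controls and at 782 to 922 after stimulation (0.18 ± 0.10, limma adjusted p = 0.316).

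Loxl1, which is needed for elastic fibre upkeep, was at 9905, 9648 and 10246 in controls and at 14258, 17393 and 16632 after stimulation. All stimulated libraries were above all controls, and the means of 9933 ± 300 and 16094 ± 1640 gave a ratio of 1.62. The change was 0.69 ± 0.09 (limma adjusted p = 0.00547), and no alternative lost the call. Loxl2, which cross-links collagen IV of basement membranes, was at 10021, 9548 and 9074 in controls and at 11802, 15494 and 13666 after stimulation. Stimulated replicate 2, which had the highest sums of its group for all marker lists except macrophage, was its highest value. Stimulated replicate 1 was the nearest to the controls. Control replicate 2 had the highest endothelial, epithelial and mesothelial sums of the controls, and its Loxl2 value lay between the other controls. The part of cell make-up in the Loxl2 values was not tested. Loxl2 rose by 0.51 ± 0.11 (limma adjusted p = 0.0272). It no longer passed after scaling to equal totals (adjusted p = 0.0664). Leaving out any control did the same (0.0757, 0.0584 and 0.107 for replicates 1 to 3), as did leaving out replicate 2 or 3 of the stimulated group (0.0533 and 0.11) or replicate 2 of both groups (0.0767).

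Loxl4 was the least abundant of the family, at 334, 369 and 352 in controls and at 500, 514 and 515 after stimulation. Its values were close together within each group, and the groups did not overlap. It rose by 0.54 ± 0.10 (limma adjusted p = 0.0162). It did not pass after scaling to equal totals (adjusted p = 0.0583), nor when replicate 1 or 3 of the controls (0.0739 and 0.0683) or replicate 3 of the stimulated group (0.0822) was left out.

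**Figure D2:**
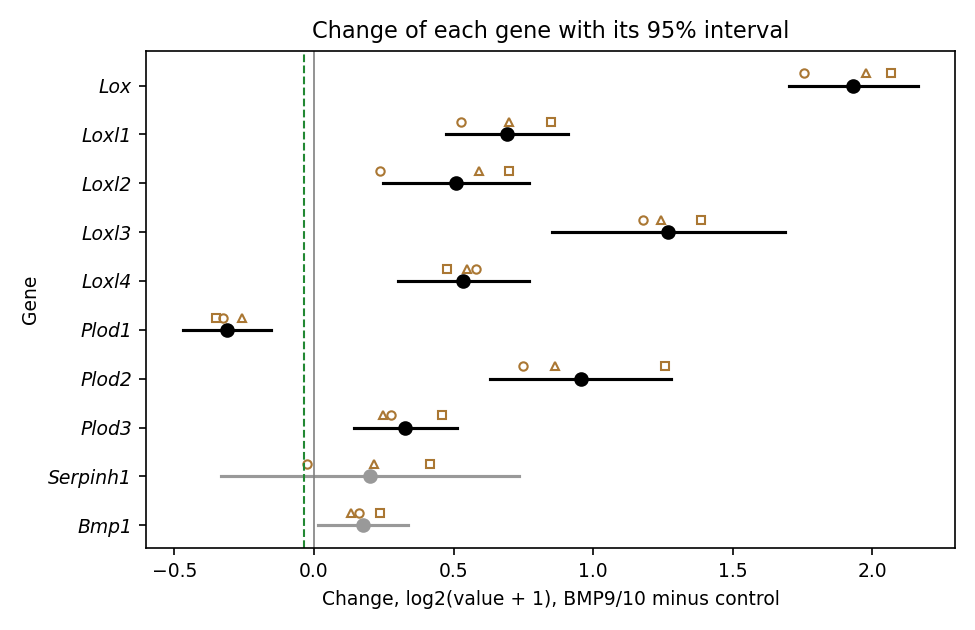
Change of each gene on the log2(value + 1) scale, BMP9/10 minus control. Filled points with lines are the limma estimate and its 95% interval (black, called; grey, not called), open brown symbols are the differences between same-numbered libraries (circle, square and triangle for replicates 1, 2 and 3), and the green dashed line is the median of all genes tested (-0.03). Lox stands at 1.93, Plod1 is the only gene below 0, and the interval of Serpinh1 runs from -0.33 to 0.74.

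The lysyl oxidases rose by unequal amounts, and the make-up of the family's RNA changed. The level per kb summed over the 5 genes was 8971, 8320 and 9017 in controls and 19715, 22563 and 23257 after stimulation, a ratio of means of 2.49. Lox made up 39.7, 38.6 and 40.7% of that sum in controls and 61.0, 59.6 and 62.0% after stimulation. This was a gain of 21.2 percentage points, far larger than the SDs of 1.0 and 1.2 points. Loxl1 went from 34.4% ± 0.85 to 22.3% ± 0.91 and Loxl2 from 20.2% ± 1.4 to 11.6% ± 1.0 (n = 3 each). The shares of these 3 genes did not overlap between groups (exact permutation test, two-sided, p = 0.1 for each, the smallest p that 3 against 3 samples allow). Loxl3 differed by less than its spread, at 4.84% ± 0.78 and 4.70% ± 0.82 (exact permutation p = 0.8). Loxl4 went from 0.954% ± 0.088 to 0.556% ± 0.04 (exact permutation p = 0.1). The smaller shares of Loxl1, Loxl2 and Loxl4 accompanied higher, not lower, levels of these genes.

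The lysyl hydroxylases moved in different directions. Plod2, which hydroxylates lysines in the collagen telopeptides and so leads to hydroxylysine-derived cross-links, was at 5132, 4070 and 5685 in controls and at 8617, 9723 and 10334 after stimulation. Every stimulated library was above every control. The means of 4962 ± 821 and 9558 ± 870 gave a ratio of 1.93, and the change was 0.96 ± 0.14 (limma adjusted p = 0.00696). Differences between same-numbered libraries were 0.75, 1.26 and 0.86. The call was kept in all 18 alternatives (highest adjusted p = 0.0459, without stimulated replicate 3).

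Plod1, which acts on lysines of the triple helix, was at 6386, 6384 and 6347 in controls and at 5100, 5003 and 5313 after stimulation. The control values were nearly identical, and all stimulated values were below them. Plod1 fell by 0.31 ± 0.07 (limma adjusted p = 0.026), to 0.806 of the control mean. With equal library totals its change was -0.48. Plod1 was not called when replicate 1 or 3 of the controls was left out (adjusted p = 0.101 and 0.0987), when any stimulated library was (0.0586, 0.0609 and 0.0819 for replicates 1 to 3), or when replicate 2 of both groups was (0.0543).

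Plod3, which besides hydroxylating lysines can add sugars to hydroxylysine, was at 3864, 3565 and 3687 in controls and at 4679, 4894 and 4376 after stimulation. The groups did not overlap. The change was 0.33 ± 0.08 (limma adjusted p = 0.0363), and this call was the least stable of the 8. It was lost with upper-quartile factors (adjusted p = 0.0975), with equal library totals (0.208; 0.101 with the replicate number as a block as well) and in all 7 fits that left out libraries (0.0769 to 0.126). Znhit1, read from the other strand, has exons over 11.7% of the exon length of Plod3, with the same limit. Znhit1 was at 725 to 824 in controls and at 623 to 704 after stimulation (-0.23 ± 0.10, limma adjusted p = 0.182).

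Among the 3 lysyl hydroxylases, the share of Plod2 in the summed level per kb was 34.6, 30.3 and 37.5% in controls and 47.2, 49.7 and 52.2% after stimulation, a gain of 15.5 points. Plod1 went from 35.2% ± 2.4 to 21.4% ± 0.93. Neither share overlapped between groups (exact permutation test, two-sided, p = 0.1 for each, the smallest possible). Plod3 was at 30.6% ± 1.4 and 28.9% ± 2.2 (exact permutation p = 0.4). Per kb of exon, the 3 genes were thus at similar levels in controls, and Plod2 supplied the largest share after stimulation. Without division by length, the control means of Plod1, Plod2 and Plod3 were 6372, 4962 and 3705. The summed level rose less than that of the lysyl oxidases, from 2682 ± 171 to 3561 ± 152 per kb, a ratio of 1.33.

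**Figure D3:**
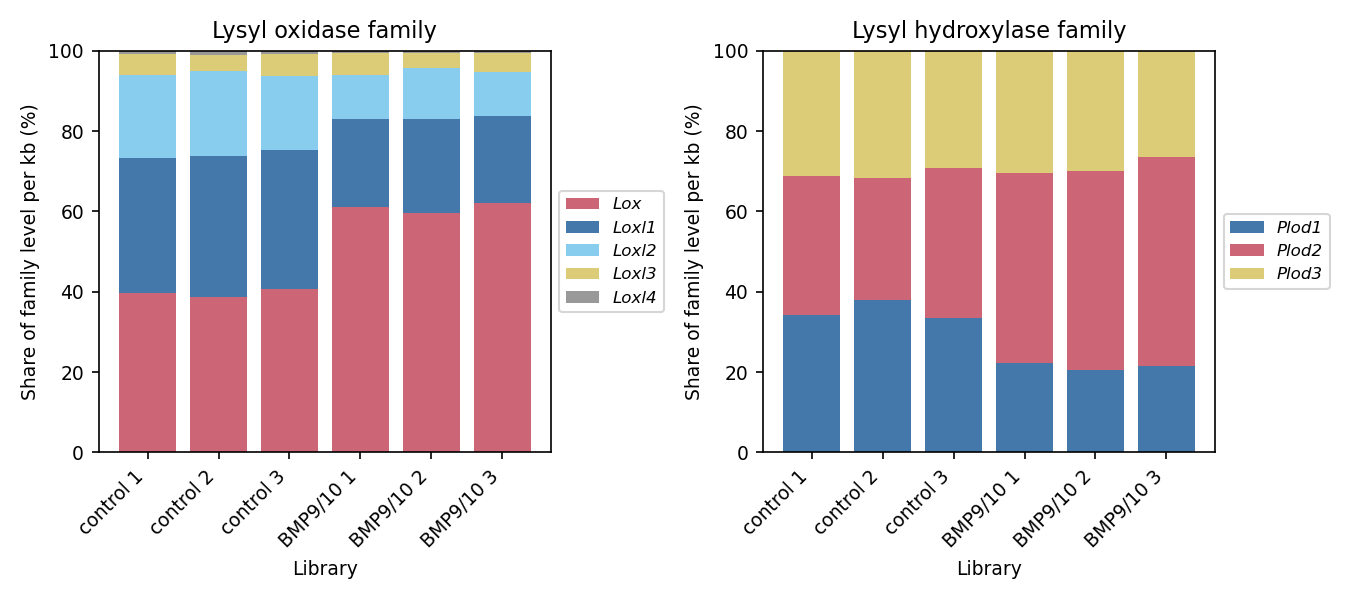
Share of each gene in the summed level per kb of exon of its family (%), one stacked bar per library, for the lysyl oxidases (left) and the lysyl hydroxylases (right). The Lox segment fills 38.6 to 40.7% of the control bars and 59.6 to 62.0% of the stimulated ones, and the Plod2 segment 30.3 to 37.5% and 47.2 to 52.2%.

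Serpinh1 (chr7:99345376-99353239, minus strand) encodes the collagen-specific chaperone. It was at 11596 ± 1850 per kb in controls, the highest of the 10 genes, and at 13655 ± 4240 after stimulation. Per kb, its stimulated libraries were at 9897, 18244 and 12824 beside 12019, 13441 and 14428 for Lox, so that Serpinh1 was above Lox in replicate 2 alone. Its values were 24613, 33375 and 27002 in controls and 24178, 44571 and 31328 after stimulation. The groups overlapped, and replicate 2 was the highest of each, at 1.29 and 1.61 times the mean of the other replicates. The change was 0.20 ± 0.23, with a 95% interval of -0.33 to 0.74 (limma adjusted p = 0.613). Without stimulated replicate 2 it was -0.03.

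Bmp1 (chr14:70474558-70520234, minus strand) was at 8357, 8509 and 8589 in controls and at 9340, 10018 and 9413 after stimulation. All stimulated values were above all controls, by a small margin. The change was 0.18 ± 0.07, with a 95% interval of 0.02 to 0.34, and it did not pass (limma adjusted p = 0.142). With equal library totals the change was 0.00.

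In controls the order of levels per kb was Serpinh1, Lox (3481 ± 239), Loxl1 (3013 ± 91), Loxl2 (1766 ± 87.6), Bmp1 (957 ± 13.3), Plod1 (942 ± 3.25), Plod2 (920 ± 152), Plod3 (820 ± 33.3), Loxl3 (426 ± 85.2) and Loxl4 (83.5 ± 4.15). Bmp1, Plod1, Plod2 and Plod3 did not all differ beyond their spread, since the SD of Plod2 covers the other 3. After stimulation Lox and Serpinh1 did not differ beyond their spread. Loxl1 (4882 ± 496), Loxl2 (2526 ± 342) and Plod2 (1773 ± 161) followed. Bmp1 (1081 ± 42), Plod3 (1029 ± 57.6) and Loxl3 (1020 ± 144) could not be ordered by their spread, and Plod1 (760 ± 23.4) and Loxl4 (121 ± 1.99) came last.

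The genes whose profile over the 6 libraries lay nearest to that of Lox, among 12522 protein-coding genes with a mean of at least 50, were Plcxd2, Slc20a1, Ctps, Spsb1 and Wnt5a. The measure was the root mean square difference of log2(value + 1) after centring each gene, and it was 0.0588, 0.0591, 0.0897, 0.0941 and 0.104 in that order. Slc20a1, a phosphate transporter gene, was at 2437, 2433 and 2585 in controls and at 8787, 9041 and 9949 after stimulation. Wnt5a, a Wnt ligand gene, was at 1534, 1607 and 1594 and at 5214, 6719 and 6075. Because these genes were picked for their nearness to Lox in the same libraries, a rise of like size and a small spread follow from the choice.

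The rest of the collagen maturation pathway was described with 7 lists of 71 genes, of which 70 were tested. These lists too were chosen with earlier results of these data known. In total 19 rose, 1 fell and 50 did not pass, and the median change was 0.21. Over all genes tested, 13.4% were called, 8.61% higher and 4.75% lower, and among genes whose mean reached 300, as most of the 70 do, 22.8% were called and 16.7% were called higher. With the replicate number as a block, 30 rose and 5 fell, beside 26.8% of all genes called (3232 higher and 2605 lower). With equal library totals, 10 rose and 2 fell. The number of calls was 3 without replicate 1 of the controls, 2 without their replicate 3 and 2 without replicate 3 of the stimulated group, and 13 without replicate 2 of the controls. P4ha3 and Sec23a were the only pathway genes called in every fit that left out libraries.

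Prolyl hydroxylation stabilises the collagen triple helix. Of the 10 genes on that list, 4 rose and none fell, and the median change was 0.24. Among all genes whose mean reached 300, 16.7% were called higher. P4ha3, an alpha subunit of prolyl 4-hydroxylase, was at 558, 619 and 592 in controls and at 2494, 3185 and 2578 after stimulation. The groups were far apart, and P4ha3 rose by 2.21 ± 0.12 (limma adjusted p = 0.00027), a call kept in all alternatives. The other alpha subunit genes rose less, P4ha2 by 0.71 ± 0.15 and P4ha1 by 0.45 ± 0.10. Neither passed after scaling to equal totals (adjusted p = 0.0564 and 0.0694), which left P4ha3 as the single call of the list. In the 7 fits that left out libraries, P4ha2 was called in 3 and P4ha1 in 2. P4ha1 was also lost with upper-quartile factors (adjusted p = 0.0596). P4hb, which encodes the beta subunit protein disulfide isomerase, was at 36853 to 39009 in controls and at 42147 to 45428 after stimulation (0.19 ± 0.07, limma adjusted p = 0.138). The remaining call was P3h4 (0.40 ± 0.09, limma adjusted p = 0.029), a partner in a complex of lysyl and prolyl hydroxylases, named after its values were seen. P3h4 passed in none of the 7 fits that left out libraries, nor with upper-quartile factors or equal totals.

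Of 12 genes for sugar addition to hydroxylysine and for folding, 4 rose and none fell, with a median change of 0.21. The share called higher was 16.7% among all genes whose mean reached 300. The number called was 6 when replicates were blocked, where 26.8% of all genes tested were called. It was 2 after scaling to equal totals, and 0 without replicate 1 or 3 of the controls or replicate 3 of the stimulated group. Slc39a13, a zinc transporter gene whose loss impairs lysyl hydroxylation, rose by 0.70 ± 0.14, the prolyl isomerase gene Fkbp14 by 0.63 ± 0.13 and the chaperone gene Hspa5 (BiP) by 0.39 ± 0.08. Hspa5 did not pass after scaling to equal totals (adjusted p = 0.0993). Fkbp10, whose product assists lysyl hydroxylase 2, was named after its values were seen. It went from 5359, 5815 and 5610 to 7041, 9459 and 7681 (0.52 ± 0.12, limma adjusted p = 0.0311). Its highest value was in stimulated replicate 2, and it did not pass with equal totals.

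Large procollagen molecules leave the endoplasmic reticulum in COPII coats. Of 11 export genes, 6 rose and none fell, with a median change of 0.40. By comparison, 16.7% of all genes whose mean reached 300 were called higher. The number called was 10 when replicates were blocked, where 26.8% of all genes tested were called. It was 3 with upper-quartile factors and 2 after scaling to equal totals. Without replicate 1 or 3 of the controls or replicate 3 of the stimulated group, it was 1. Sec23a, an inner coat subunit gene, was at 5176, 4503 and 5448 in controls and at 8816, 9769 and 10643 after stimulation, with no overlap. It rose by 0.95 ± 0.11 (limma adjusted p = 0.00292), a call kept in all alternatives. Mia2, which encodes a cargo receptor partner, rose by 0.46 ± 0.08 and the coat GTPase gene Sar1a by 0.45 ± 0.08. Sar1a did not pass with equal totals (adjusted p = 0.0511).

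Of 9 tested genes for propeptide removal, 2 rose and 1 fell, with a median change of -0.16. Over all genes tested, 8.61% were called higher and 4.75% lower. The count of 2 in 9 is near the 16.7% called higher among genes whose mean reached 300. Tll1, a protease of the Bmp1 family, was at 559, 362 and 486 in controls and at 1948, 778 and 1905 after stimulation. The groups did not overlap, but replicate 2 was the lowest in both. Tll1 rose by 1.62 ± 0.37 (limma adjusted p = 0.0303). The proprotein convertase gene Furin rose by 0.72 ± 0.14. Adamts14, which encodes a procollagen N-proteinase, fell from 662 ± 166 to 279 ± 38.5 (-1.22 ± 0.21, limma adjusted p = 0.013). Tll1 was not called in 5 of the 7 fits that left out libraries, and Furin and Adamts14 each in 3.

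Of 10 genes for lysyl oxidase helpers and copper supply, 1 rose and none fell, or 4 and 1 when replicates were blocked, with a median change of 0.25. Over all genes 8.61% were called higher, and 16.7% where the mean reached 300. With the block, 3232 of the 21743 genes tested were called higher and 2605 lower. The gene that rose was Fmod, fibromodulin, a collagen-binding proteoglycan that can recruit Lox. It was at 82, 229 and 130 in controls and at 520, 1235 and 694 after stimulation (2.49 ± 0.44, limma adjusted p = 0.0131), with replicate 2 the highest of each group. Fmod did not pass when replicate 3 of either group was left out (adjusted p = 0.058 for the control and 0.064 for the stimulated library).

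Of the 10 substrate genes, 2 rose and none fell, or 3 and 1 when replicates were blocked, with a median change of 0.19. The count of 2 in 10 is near the 16.7% called higher among genes whose mean reached 300. With the block, 3232 of the 21743 genes tested were called higher and 2605 lower. Eln, elastin, was at 8041, 12028 and 6752 in controls and at 20041, 65743 and 38516 after stimulation, without overlap and with a wide spread. It rose by 2.09 ± 0.42 (limma adjusted p = 0.0212), but did not pass when replicate 1 or 3 of the controls (0.0789 and 0.0858) or replicate 3 of the stimulated group (0.095) was left out. Col11a1, a minor fibrillar collagen chain gene, rose by 1.47 ± 0.30 (limma adjusted p = 0.0231). It was at 1380, 1194 and 1286 in controls and at 4931, 2086 and 4405 after stimulation. This call was kept in 2 of the 7 fits that left out libraries. The major chains did not pass. Col1a1 was at 120701, 193253 and 139508 in controls and at 110532, 246018 and 147858 after stimulation, with replicate 2 highest in both (0.10 ± 0.31, limma adjusted p = 0.865). Col1a2 had a change of -0.15 ± 0.18. Col3a1 had a change of -0.55 ± 0.23 (limma adjusted p = 0.169), which passed when replicates were blocked (0.0141), and when replicate 2 of the stimulated group (0.0254) or of both groups (0.0311) was left out.

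None of 8 genes for collagen turnover and uptake passed limma (0 with limma-voom, and 2 lower when replicates were blocked), and their median change was -0.05. Over all genes tested, 13.4% were called, and 26.8% with the block. The single gene with an unadjusted p under 0.05 was Ctsk, which encodes the collagen-degrading cathepsin K. It was at 20548, 15641 and 19198 in controls and 16375, 9063 and 12745 after stimulation. Its groups overlapped (-0.57 ± 0.22, limma adjusted p = 0.136; 0.00615 with the replicate block).

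**Figure D4:**
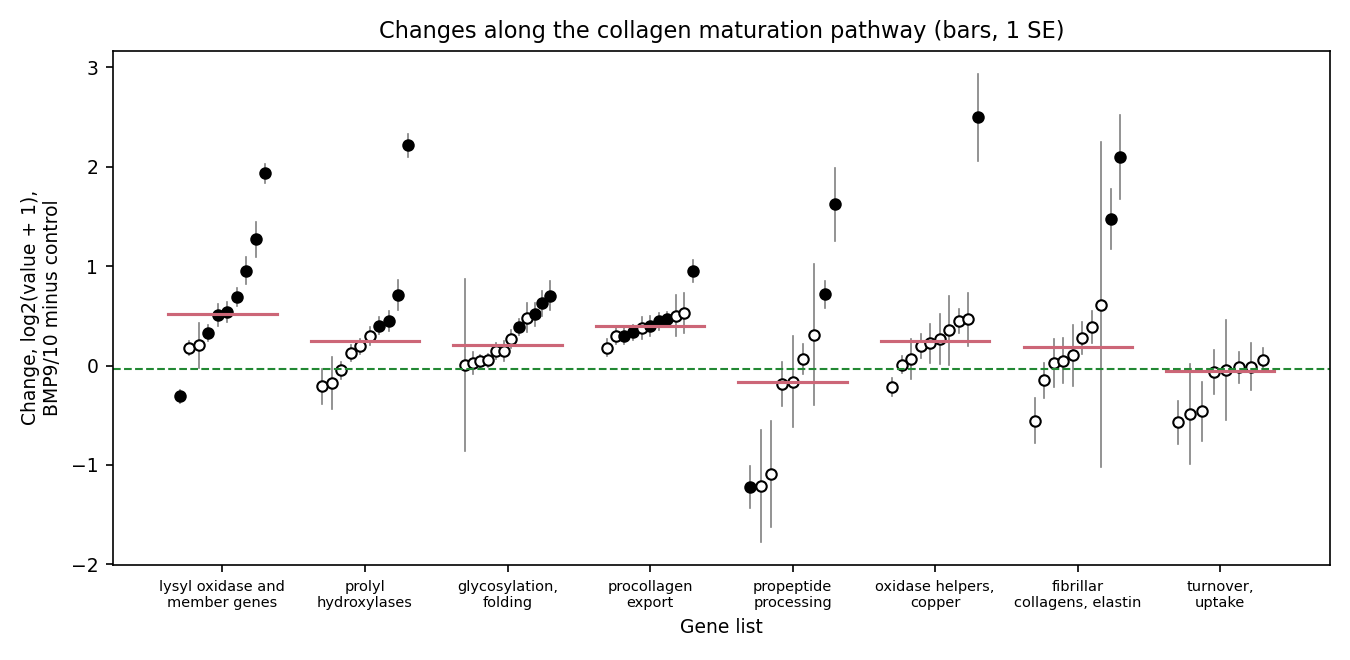
Change of each gene on the log2(value + 1) scale ± 1 SE, BMP9/10 minus control, for the 10 genes described first and for the 7 lists of the pathway. Filled points passed limma, open points did not, red lines are list medians and the green dashed line is the median of all genes tested (-0.03). Lox (1.93), P4ha3 (2.21), Fmod (2.49) and Eln (2.09) stand highest, and medians run from -0.16 for propeptide processing to 0.52 for the 10 genes.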

How the data were processed

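The submitters' processing notes list, without order, DESeq2 1.18.1, featureCounts 1.6.3, the aligner STAR 2.6.1d, the trimmer Trimmomatic 0.38 and FastQC. Builds listed are mm10, hg38 and GRCh38. The strand setting is not given in the sources used here. Each deposited value is a score. Judged from regular gaps between whole numbers, it is a read count that was rescaled within each library and then rounded, so count models were not used. Of 21785 gene identifiers, 21747 matched GENCODE M21 (mm10). The main test was limma's trended fit (limma 3.58.1, R 4.3.3). It ran on log2(value + 1) of 21743 genes, after 42 with a mean under 1 were dropped. Treatment was its sole term, and a gene was called at a Benjamini-Hochberg adjusted p under 0.05. This scale understates the change of low genes. Levels per kb used the union of annotated exons, and comparisons of level between genes depend on that length. The depth behind the scaled values was not recovered.

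The members and lists were chosen with earlier results of these data known. Named genes are all 10 members, up to 3 called genes with the smallest p per list (or the 1 smallest if none passed), pathway genes with a P4h, Col1a, Col3a or Eln symbol, and the 5 profiles nearest to Lox. Replicate numbers were taken to pair the samples in the replicate block and in differences between same-numbered libraries, but not in the main test. Deviations from group means over 13185 genes correlated by 0.747, 0.741 and 0.218 between same-numbered libraries. These deviations are taken within groups of 3 samples, so the correlations are not independent of one another. Control replicate 3 correlated more with stimulated replicate 1 (0.287). Alternatives were other scalings, pseudocounts of 0.1 and 10, other filters, limma-voom, the replicate block and left-out libraries. On simulated data for this comparison (21646 genes run), the fit called 98% of 100 genes changed by 1 and 100% of 100 changed by 2 on the log2 scale. It also called 8 unchanged genes. The simulated libraries were drawn independently, without the deviations that same-numbered libraries share in the real data. These shares therefore do not measure how many changed genes the fit recovers in the real data.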

Additional observations from a re-analysis of the deposited data

How the results depend on the processing

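Of the 10 genes, 8 were called with the values as deposited. The count was 5 with equal library totals, 5 without both replicate 2 libraries, 8 with the replicate block, and 4 to 6 when single libraries were left out. Lox, Loxl1, Loxl3 and Plod2 were called in each of the 18 alternatives, and no other member was. The pathway lists had 20 calls, 12 with equal library totals, 35 in the fit with the block, and 2 to 15 when single libraries were left out. The whole table had 2905 calls, 5837 with the block, 6957 with the block plus equal totals, and 917 to 2384 when single libraries were left out. The block changed no member's call. The signs of 3 uncalled log2 changes turned. For Serpinh1 the value was -0.03 when stimulated replicate 2 was left out, and 0.411 when stimulated replicate 1 was. For Col1a1 it was -0.072 after scaling to equal totals, blocked or not, -0.046 when control replicate 1 was left out, -0.213 when stimulated replicate 2 was, 0.364 when stimulated replicate 1 was and -0.022 when replicate 2 of both groups was. For Col1a2 it was 0.007 when stimulated replicate 1 was left out and -0.324 when stimulated replicate 2 was. The gain in the share of Lox (20.6 to 21.8 points) and of Plod2 (13.6 to 17.2 points) kept its sign in each fit that left out libraries and without division by length. Fits without libraries have fewer residual degrees of freedom. The cause of the other shifts was not tested.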
